A study of Mus musculus with 4 samples.

Results

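The sebaceous gland markers examined here are a list of 10 genes of the oil-secreting cells of the hair follicle and of their duct. Members were every probe set, the group of short probes that reads a transcript, whose gene symbol in the array's annotation was on the list. Of the 10 genes, 7 had a probe set (Scd1, Scd3, Mc5r, Elovl3, Far2, Acsbg1 and Krt79), with 10 probe sets in all, out of 18193 genes and 34945 probe sets with 1 symbol on the array. No probe set carried the symbol of Awat1, Awat2 or Soat1 in the annotation used, and these genes are not analysed here.

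Expression was measured on single-colour Affymetrix mouse arrays in dorsal skin at postnatal day 16. The wild type group and the bitransgenic group had 2 arrays each, with 1 animal per array (n = 2 per group throughout). Bitransgenic animals overexpressed deltaNp63alpha, a transcription factor of basal keratinocytes, per the labels. The labels name neither the promoter that drives the transgenes nor an inducing agent, strain, sex or litter. Values are array signals in intensity units, which the authors had scaled to a common mean per array, and differences are bitransgenic minus wild type on the scale log2(signal + 16).

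The sebaceous gland buds from the upper follicle, and its mature cells fill with lipid and burst to release sebum, a mixture rich in wax esters, triglycerides and sterol esters. Its cells elongate and desaturate fatty acids, reduce part of them to fatty alcohols and join these into waxes. PPAR-gamma drives the lipid programme of these cells, and the duct through which sebum leaves is lined by keratinocytes with their own keratins.

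The arrays fitted their labels at the transgene. Of 4 Trp63 probe sets, 2 read between 161 and 838 in wild type and between 4644 and 15247 in bitransgenic skin, while the other two did not separate the genotypes. The median signal per array lay between 97.9 and 113, and the arrays correlated at 0.869 to 0.949. The basal keratins Krt5 and Krt14 read 19571 or more on every array. All 10 member probe sets had a 4-array mean above the filter on dim probe sets, a signal of 57.0, and so had every single array, with the receptor gene Mc5r closest to it.

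No sebaceous marker passed the threshold of 0.05 on the adjusted p between genotypes. With limma, 0 of 7 genes were called, against 2.33% of 13070 genes tested, and 0 of 10 probe sets were called, against 0.173% of 45037. At an unadjusted p under 0.05 there were 2 of 7 genes, Krt79 and Scd3, against 16.7% of all genes, and 3 of 10 probe sets, against 9.97%. Groups did not overlap for these 2 genes, against 48.8% of all genes. The list's median difference was 0.35, beside 0.0053 over all genes tested, with 4 genes above 0 and 3 below. Without bitransgenic replicate 1 the median turned to -0.47, with 2 genes above 0 and 5 below, and without wild type replicate 2 it was 0.075. In whole skin, fewer cells of a type and less RNA per cell cannot be told apart.

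**Figure D1:**
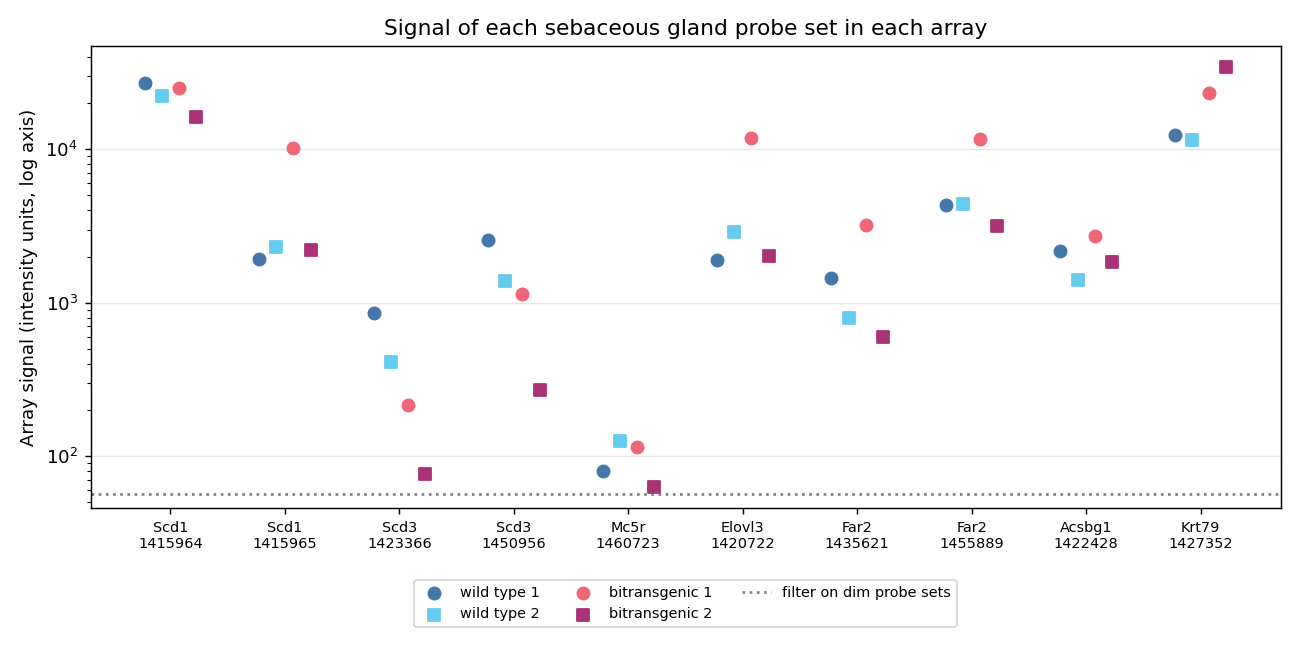
Signal of each member probe set (x axis, gene and probe set number) on each of the 4 arrays (y axis, intensity units, log axis), 1 point per animal, with the dim-signal filter of 57.0 as a dotted line. Krt79 is higher and Scd3 lower in both bitransgenic animals, while Elovl3, Far2 and the second Scd1 probe set stand high in bitransgenic replicate 1 alone.

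Krt79, a duct marker, had the smallest p among the member genes tested. Krt79 codes for a keratin of the infundibulum and the sebaceous duct. The wild type animals, in the order of their replicate numbers as in all values here, read 12408 and 11445, and the bitransgenic animals 23210 and 34422. Both bitransgenic animals lay above both wild type animals. The means were 11927 ± 681 (SD) and 28816 ± 7928, a 2.37-fold difference (log2 difference 1.24 ± 0.28, SE; 95% interval 0.58 to 1.91; limma adjusted p = 0.0837). The adjusted p was 0.0262 after quantile normalization, the only change of scaling that passed, and ran up to 0.315 without bitransgenic replicate 2, where the difference was 0.96.

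Genes of the duct and of the junctional zone beside it, the part of the follicle that feeds the gland, gave 0 calls in either direction among 8 tested, with 6 positive values and a median of 0.44. The median was 0.12 without bitransgenic replicate 2. Plet1, a surface marker of the junctional zone chosen after its values were seen, read 4764 and 6303 in wild type against 8330 and 9146 in bitransgenic skin (0.67 ± 0.25, adjusted p = 0.245). With the mean of its kept probe sets the Plet1 difference was 0.43 (limma adjusted p = 0.462). Lgr6, a receptor of stem cells above the bulge, also chosen after its values were seen, ran in the other direction. It read 562 and 326 in wild type against 110 and 106 in bitransgenic skin (-1.84 ± 0.38, adjusted p = 0.0687). The Lgr6 value passed without wild type replicate 2 (adjusted p = 0.0177), had an adjusted p of 0.273 without bitransgenic replicate 1, and was -1.06 (adjusted p = 0.235) with the mean of its kept probe sets. Of the 8 genes of this list, 2 had groups that did not overlap in the higher and 2 in the lower direction. This is near the share over all genes, 23.9% and 24.9%.

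The genes nearest to Krt79 in pattern were Rac2, Csf2ra and Vsnl1, with a root mean square difference of 0.067, 0.067 and 0.070 in log2 units over the 4 arrays. Rac2 and Csf2ra are known from blood cells. All 6 macrophage markers tested had positive values, with a median of 0.79 (0.38 to 1.15 with 1 array left out) and 0 calls, and their summed signal was 9470 to 15857 in wild type and 19941 to 27999 in bitransgenic skin. Their part in the Krt79 value was not tested. The likeness rests on 4 points and is a description only.

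The desaturase genes Scd1 and Scd3 code for paralogous enzymes that place a double bond in long-chain fatty acids. Scd3 was read by a pair of probe sets. Probe set 1450956_at read 2568 and 1377 in wild type against 1142 and 269 in bitransgenic skin, and 1423366_at read 855 and 408 against 214 and 76.5. By both probe sets each bitransgenic animal lay below each wild type animal, and bitransgenic replicate 2 was the lowest array. In the gene test, through 1450956_at, Scd3 was 3.30-fold lower (-1.72 ± 0.66, 95% interval -3.31 to -0.13, limma adjusted p = 0.263). Among all probe sets, 1423366_at was 4.17-fold lower (-2.06 ± 0.57, adjusted p = 0.294). The gene value was -0.71 without bitransgenic replicate 2 and -2.74 without bitransgenic replicate 1, neither of which passed.

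Scd1 is the main desaturase of sebocytes and is also made by fat cells. Probe set 1415964_at read 27240 and 22284 in wild type against 25264 and 16272 in bitransgenic skin, so the groups overlapped (-0.28 ± 0.30, 95% interval -1.0 to 0.44, adjusted p = 0.706). Probe set 1415965_at read 1921 and 2292 in wild type against 10245 and 2195 in bitransgenic skin. Here 1 animal stood 2.15 above the next highest array in log2 units, and the other bitransgenic animal lay between the wild type animals (1.17 ± 0.67, adjusted p = 0.660 among all probe sets). The pair therefore disagreed about bitransgenic replicate 1. The signal of the first was 14.2, 9.72 and 7.42 times that of the second in wild type replicates 1 and 2 and bitransgenic replicate 2, and 2.47 times in bitransgenic replicate 1. When the kept probe sets were averaged, the Scd1 difference turned from -0.28 to 0.45 (adjusted p = 0.710), so no direction of Scd1 is given. Short probes of Scd1 and Scd3 may also read each other's transcripts, and the probe sequences were not used here.

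**Figure D2:**
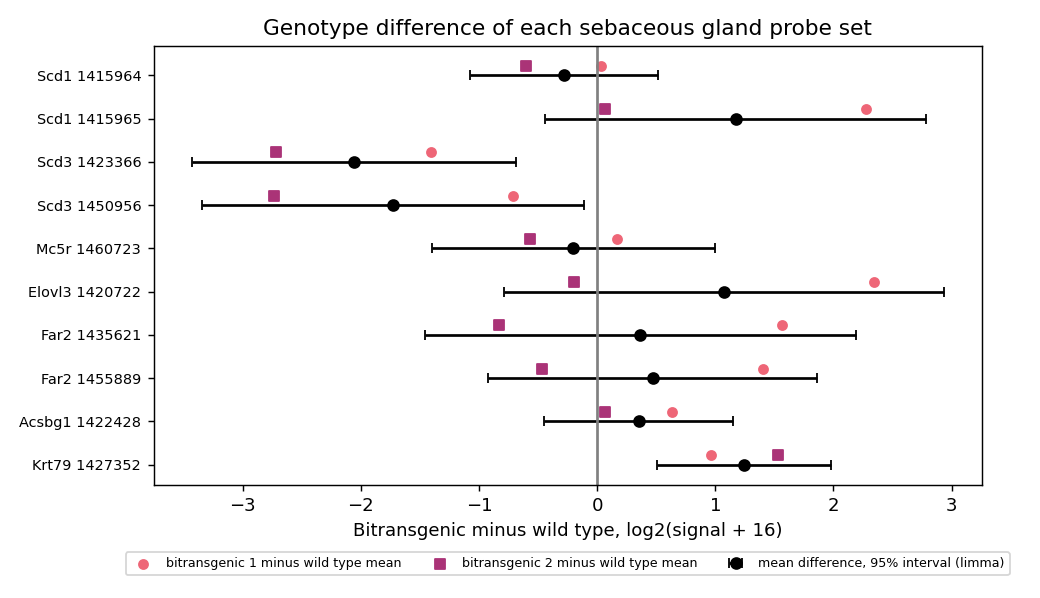
Difference from wild type of each member probe set (y axis) in log2(signal + 16) units (x axis). Black points and bars are the mean difference and its 95% interval from limma over all 45037 probe sets, and coloured points are each bitransgenic animal minus the wild type mean. The intervals of Scd3 and Krt79 leave out 0, although no adjusted p passed, and the animals lie far apart for Elovl3, Far2 and Scd1 1415965_at.

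The genes of chain elongation and of fatty alcohol synthesis showed a spread between the bitransgenic animals that exceeded the difference between genotypes. Elovl3, which elongates long-chain acids in sebocytes and brown fat, read 1888 and 2878 in wild type against 11897 and 2031 in bitransgenic skin. Bitransgenic replicate 1 was 5.82-fold above replicate 2, and replicate 2 lay between the wild type animals. The genotype difference was 1.07 ± 0.76 (95% interval -0.75 to 2.90, adjusted p = 0.554). It turned to -0.20 without bitransgenic replicate 1 and was 2.34 without replicate 2 (adjusted p = 0.0512).

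Far2, a reductase that turns fatty acyl-CoA into the alcohols of waxes, gave the same order of the bitransgenic animals. Probe set 1455889_at read 4333 and 4422 in wild type against 11622 and 3162 in bitransgenic replicates 1 and 2, and 1435621_at read 1456 and 797 against 3219 and 598. By both, replicate 1 was the highest and replicate 2 the lowest of the 4 arrays. The genotype difference through 1455889_at was 0.47 ± 0.56 (95% interval -0.89 to 1.83, adjusted p = 0.745), and it turned to -0.47 without bitransgenic replicate 1.

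Acsbg1, an acyl-CoA synthetase that activates long-chain fatty acids, read 2187 and 1413 in wild type against 2734 and 1847 in bitransgenic skin. The groups overlapped, with a difference of 0.35 ± 0.32 (95% interval -0.43 to 1.13, adjusted p = 0.660), which ran from 0.039 without wild type replicate 2 to 0.66 without wild type replicate 1, and was 0.070 without bitransgenic replicate 1. Mc5r, the melanocortin receptor through which sebum output is regulated, read 80 and 125 in wild type against 114 and 62.5 in bitransgenic skin (-0.20 ± 0.43, 95% interval -1.24 to 0.84, adjusted p = 0.874). These signals lie near the dim end of the tested range, and the interval covers a difference of 2-fold in the downward direction.

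The high signal of Elovl3 and Far2 in bitransgenic replicate 1 was shared by part of the lipid genes and not by the duct keratin. A cut of at least 2-fold above each of the other 3 arrays, chosen after the values were seen and given without a test, was met by 2 of 7 member genes against 0.581% of all genes, and by 4 of 10 member probe sets against 1.09%. These 4 probe sets read Scd1 (1415965_at), Elovl3 and, with a pair, Far2. For 6 of the 7 member genes bitransgenic replicate 1 lay above replicate 2, against 42.9% of all genes, the exception being Krt79. Among these 6, wild type replicate 1 also lay above wild type replicate 2 for Scd1, Scd3 and Acsbg1 (by 0.29, 0.89 and 0.62 in log2 units). It lay below for Mc5r, Elovl3 and Far2. The genes nearest to Elovl3 in pattern were Saa3, Reep6 and Cers4, at a root mean square difference of 0.18, 0.27 and 0.28. Cers4, a ceramide synthase of sebaceous glands, read 2275 and 2657 in wild type against 8598 and 2203 in bitransgenic replicates 1 and 2.

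Of 24 tested genes of sebaceous lipid synthesis and storage other than the members, none passed in either direction, and the median difference was 0.30, or -0.071 without bitransgenic replicate 1. Bitransgenic replicate 1 was the highest array for 17 of the 24, against 21.4% of all genes. It lay above replicate 2 for 19 of the 24, and by 2-fold or more for 8 of the 24, against 42.9% and 2.76%. The examples below were chosen after their values were seen. Among these 8, Elovl5 read 9081 and 6038 in wild type against 7517 and 2573 in bitransgenic skin. Elovl6 read 13306 and 8614 against 16223 and 3584. For both genes bitransgenic replicate 2 was the lowest array. Dgat1, which makes triglycerides, read 877 and 798 in wild type against 3292 and 958 in bitransgenic skin. Cidea, a lipid droplet protein of sebocytes, read 3180 and 2563 against 8211 and 3158. Plin2, which coats lipid droplets, read 8910 and 7881 against 17155 and 8878. Apoc1, an apolipoprotein gene, did not follow this pattern. It was high in both bitransgenic animals, at 9537 and 7678 against 3946 and 3789 (1.14 ± 0.23, adjusted p = 0.0683).

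**Figure D3:**
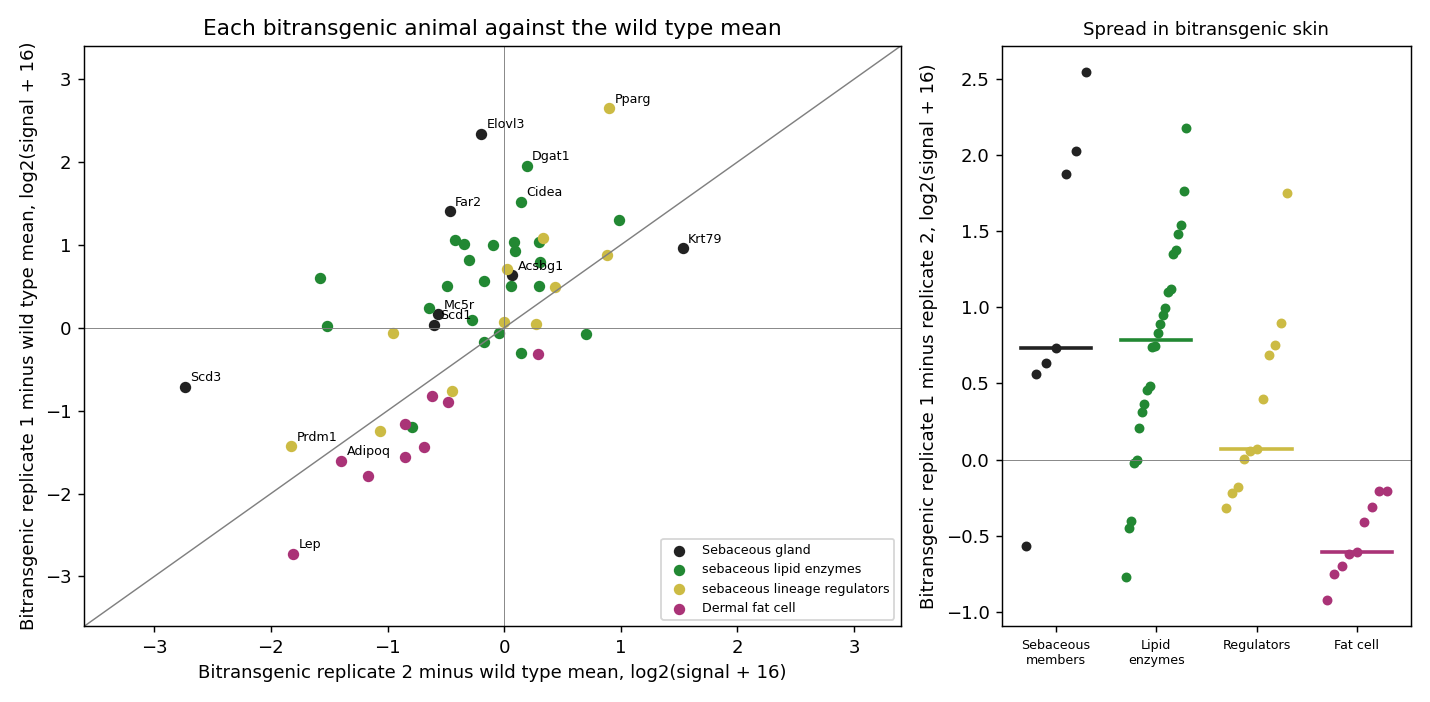
Left, each bitransgenic animal against the wild type mean in log2(signal + 16) units for the tested genes of 4 lists, 1 point per gene, with the line of equal difference. Right, bitransgenic replicate 1 minus replicate 2 for the same genes, with a bar at the median. The medians are 0.73 for the members, 0.79 for lipid enzymes, 0.070 for lineage regulators and -0.61 for fat cell genes.

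Among 11 sebaceous lineage regulators tested, 1 was called lower and none higher, against 1.58% and 0.75% of all genes. The called gene was Prdm1, which codes for the repressor BLIMP1, known in upper follicle and sebaceous lineage cells and also in the hair follicle and epidermis. It read 2366 and 2653 in wild type against 922 and 696 in bitransgenic skin (-1.63 ± 0.26, adjusted p = 0.0356), with no overlap. The call was lost without bitransgenic replicate 1 (adjusted p = 0.116) or replicate 2 (0.178), without the intensity trend (0.0634) and without the filter on dim probe sets (0.0509). Pparg, chosen after its values were seen, read 849 and 389 in wild type against 3698 and 1088 in bitransgenic replicates 1 and 2. The groups did not overlap and replicate 1 was again the highest array (1.77 ± 0.62, adjusted p = 0.222). The difference was 0.90 without bitransgenic replicate 1 and 2.65 without replicate 2. Sox9, a follicle stem cell factor also chosen after its values were seen, read 2171 and 1667 against 792 and 900 (-1.16 ± 0.26, adjusted p = 0.0883), and passed without wild type replicate 2 (0.0356).

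Several members are also made outside the gland, so markers of other cells are given beside them. Fat cells share Scd1 and Pparg, and their part in the values of these genes was not tested. All 9 fat cell markers tested had negative values, with a median of -1.06 and no calls, and their summed signal was 63348 to 74079 in wild type and 32494 to 41821 in bitransgenic skin. None of the 9 was higher in bitransgenic replicate 1 than in replicate 2. Leptin (Lep), a hormone of fat cells chosen after its values were seen, read 1005 and 613 in wild type against 105 and 213 in bitransgenic skin (-2.27 ± 0.43, adjusted p = 0.0581). Without wild type replicate 2, 5 of the 9 passed, where 4.86% of all genes were called lower, and without each of the other 3 arrays none did. Brown fat, which shares Elovl3, had 2 of 3 listed genes tested. Its gene Cox7a1, a mitochondrial subunit, was chosen after its values were seen. Cox7a1 read 2363 and 499 in wild type against 144 and 146 in bitransgenic skin (-2.78 ± 0.68, adjusted p = 0.104). The other tested gene, Ppara, ran in the other direction. It read 283 and 158 against 344 and 188 (0.25 ± 0.44, adjusted p = 0.841), with bitransgenic replicate 1 the highest array. The part of brown fat in the Elovl3 value was not tested.

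Markers of epidermis, dermal fibroblasts and endothelium gave no calls. The median was 0.10 for 4 basal epidermis genes and -0.020 for 3 endothelium genes. The 4 suprabasal epidermis genes tested gave 2 positive and 2 negative values. The keratin gene Krt1, chosen in the same way, read 6727 and 3428 in wild type against 11382 and 18291 in bitransgenic skin (1.58 ± 0.40, adjusted p = 0.111). Both bitransgenic animals were higher, as for Krt79. Ivl was also positive (1.35), while Krt10 was negative (-0.27). Lor was negative too, at 16101 and 8350 against 7171 and 3779 (-1.15 ± 0.43, adjusted p = 0.247). All 3 dermal fibroblast markers had negative values, with a median of -0.82. Their groups did not overlap, against 24.9% of all genes in that direction. The part of these cells in the values of the members was not tested.

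Hair shaft and muscle genes also moved with genotype in the same skin. All 4 hair shaft markers were called lower, and of 4 skeletal muscle markers 3 were, against 1.58% of all genes. The medians were -6.35 and -3.38. The muscle markers also differed between the wild type animals, with a median of 1.60 for replicate 1 minus replicate 2 in log2 units. Their summed signal was 109523 and 44771 in wild type against 9702.5 and 12724 in bitransgenic skin. The median of the muscle markers was -3.16 without bitransgenic replicate 1 and -3.61 without replicate 2. Of these markers 1 was called lower with the mean of kept probe sets. Without the intensity trend or without the filter 0 were called, while the median stayed at -3.38. Of the hair shaft markers 2 were called lower at a pseudocount of 1, where their median was -6.81. Their part in the values of Krt79 and Scd3 was not tested. RNA integrity was taken as the 3' to 5' signal ratio of 2 control genes. For Gapdh the ratio was 1.55 and 1.02 in wild type against 0.944 and 0.931 in bitransgenic skin, and for Actb it was 1.66 and 1.53 against 1.70 and 1.54. The mean signal of the spiked bacterial control probe sets was 1528 and 328 in wild type against 1598 and 465 in bitransgenic skin. It was thus higher on the arrays of replicate 1 in both genotypes, and its part in the high lipid genes of bitransgenic replicate 1 was not tested. The Y-linked gene Eif2s3y read 1922 in wild type replicate 1 and 1212 in bitransgenic replicate 2, while Xist read 5182 in wild type replicate 2 and 6195 in bitransgenic replicate 1. Of the other Xist probe sets, the brighter read 708 in wild type replicate 2 and 2979 in bitransgenic replicate 1. The dimmer read 124 and 102. By each Xist probe set these animals thus lay above the other arrays, although their levels were not equal by all. The part of sex in the high lipid genes of bitransgenic replicate 1 was not tested. Sex within the bitransgenic pair cannot be told apart from animal.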

How the data were processed

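The deposited values are array intensity signals per probe set on a linear scale. Per the submitters' processing notes MAS5 and the package affy were used, with versions not given in the sources used here. Of 45101 probe sets, 64 were controls, 932 had several gene symbols and 9160 had none. Signals were transformed as log2(signal + 16) without further normalization. A probe set was kept at or above the 40th percentile of the 4-array mean, and the kept probe set with the highest mean stood for its gene (13070 genes).

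The genotype test was limma's lmFit and eBayes with trend (limma 3.58.1, R 4.3.3), and p-values were adjusted by Benjamini-Hochberg over all genes or over 45037 probe sets. The test was tested on simulated data. There were 2 residual degrees of freedom, and an exact permutation of 2 against 2 arrays cannot go below p = 0.333. Standard errors and intervals are those of the moderated fit, and precision is limited by the number of arrays. Per the labels, arrays within a group are biological replicates.

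Members and lists were chosen with earlier results of these data known. Named were all members, called list genes and the nearest genes in pattern. The other list genes and cuts are stated as chosen after their values were seen, or are given as the rest of a list. Brightest list genes without a call, also in the rule, are mostly not printed. Alternatives covered pseudocount, scaling, filter, gene rule, trend, block and each array left out.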

Additional observations from a re-analysis of the deposited data

How the results depend on the processing

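The member genes were called in 0 cases under every alternative except quantile normalization, which called 1 (Krt79, 1.26, adjusted p = 0.0262), and the replicate block, which called 2. Of 97 values of member genes under alternatives, 88 kept direction and side of the threshold, 6 changed sign and 3 came to pass. Apart from arrays left out, the sign changed for Scd1 alone, to 0.45 with the mean of its kept probe sets. The cause was not tested. With each array left out in turn, differences ran from -0.60 to 0.036 for Scd1, -0.57 to 0.16 for Mc5r, -0.20 to 2.34 for Elovl3, -0.47 to 1.41 for Far2, -0.16 to 1.80 for Cers4 and, for Far2 probe set 1435621_at, -0.83 to 1.56. Over the pathway and cell type lists 8 genes were called. The count was 3 without the intensity trend, 3 without the filter, 5 with the mean of kept probe sets and 5 to 19 with arrays left out (19 without wild type replicate 2, 5 without bitransgenic replicate 1).

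Both groups carry replicate numbers 1 and 2, but nothing in the labels says that a number pairs animals. Deviations of same-numbered arrays from their group means correlated at 0.21 over genes. With the replicate block 2 member genes (Krt79, adjusted p = 0.0292, and Scd3, 0.0416), 1 member probe set (1423366_at, 0.048) and 17 list genes were called, Pparg among the genes that came to pass (0.0239), and calls over all genes went from 98 higher and 206 lower to 207 and 438.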
